A study of Mus musculus with 16 samples.

Results

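The comparison described here sets the soleus muscle of male mice after 14 days of a hypoxia protocol against the same muscle at day 0, before the oxygen level was lowered. It comprised 8 arrays, 4 from day 14 RNA samples and 4 from day 0 RNA samples, chosen by their titles as the arrays that shared 1 slide, out of 16 arrays of 14 RNA samples in the whole series. In this protocol, per the study's design text, oxygen fell stepwise to 10% during the first week and was held there through the second, so day 14 stands at the end of a week at stable low oxygen. The labels name no mutation and no drug in either group, and they give neither strain nor age. Whether separate mice gave the RNA samples is not labelled either, so the p-values below measure the spread between RNA samples. Days 3 and 7, with 3 RNA samples each, lay on the other slide together with repeat arrays of day 0 RNA samples 1 and 2, and serve only as context.

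The soleus is a postural hindlimb muscle built largely of slow, oxidative fibres, and its labelled identity was checked first. Myh7, the slow myosin heavy chain, had log2 levels of 10.81, 10.78, 10.62 and 10.72 in the day 14 samples, against 10.69, 10.72, 10.65 and 10.64 in the day 0 samples. Here and below a log2 level is the log2 intensity of a probe minus the 75th percentile of its array, so that 0 marks a probe brighter than 75% of the spots. All 15 skeletal muscle markers were above background, with a median difference of 0.00 between the days.

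When oxygen is scarce, prolyl hydroxylases of the Egln family stop marking the alpha subunits of hypoxia-inducible factor (HIF) for destruction, and HIF then binds a short DNA element, ACGTG, near its target genes. Among the known direct targets are genes of glycolysis, vessel growth and iron use, and Ankrd37, which encodes an ankyrin repeat protein. Systemic low oxygen also drives the kidney to release erythropoietin, and the young red blood cells that follow carry globin messenger RNA, transcribed under GATA factors that recognise GATAA. In the blood within a muscle, such RNA is measured together with the RNA of the fibres. The promoter of the gene with the smallest p-value and those of 3 of the largest rises are shown here as background. They are RefSeq sequences of build GRCm38.p6 that run from 250 bases before to 50 bases after the start of the gene, 5′ to 3′ on the strand of the gene, with every ACGTG in the first and every GATAA in the other 3 in capitals, or the reverse complements CACGT and TTATC. The Ankrd37 window lies at chr8:45999801-46000100 (minus strand), that of Hba-a1 at chr11:32283422-32283721 (plus), that of Hbb-bt at chr7:103813874-103814173 (minus) and that of Alas2 at chrX:150547167-150547466 (plus).
Ankrd37: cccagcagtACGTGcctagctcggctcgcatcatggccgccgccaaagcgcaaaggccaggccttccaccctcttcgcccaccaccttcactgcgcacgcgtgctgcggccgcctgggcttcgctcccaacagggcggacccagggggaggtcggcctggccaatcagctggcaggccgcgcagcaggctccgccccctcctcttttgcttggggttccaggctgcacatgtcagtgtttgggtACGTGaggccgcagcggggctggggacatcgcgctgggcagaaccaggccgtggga
Hba-a1: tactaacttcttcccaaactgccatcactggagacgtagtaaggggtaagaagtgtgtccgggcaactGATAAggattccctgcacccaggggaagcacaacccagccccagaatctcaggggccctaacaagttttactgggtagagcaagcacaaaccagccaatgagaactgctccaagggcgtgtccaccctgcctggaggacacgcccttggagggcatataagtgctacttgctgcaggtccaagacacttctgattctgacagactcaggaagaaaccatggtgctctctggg
Hbb-bt: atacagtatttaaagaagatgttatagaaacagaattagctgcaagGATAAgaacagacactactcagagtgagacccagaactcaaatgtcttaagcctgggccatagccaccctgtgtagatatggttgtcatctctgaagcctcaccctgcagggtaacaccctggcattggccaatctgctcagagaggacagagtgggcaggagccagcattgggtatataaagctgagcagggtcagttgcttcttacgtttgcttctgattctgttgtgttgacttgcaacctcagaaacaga
Alas2: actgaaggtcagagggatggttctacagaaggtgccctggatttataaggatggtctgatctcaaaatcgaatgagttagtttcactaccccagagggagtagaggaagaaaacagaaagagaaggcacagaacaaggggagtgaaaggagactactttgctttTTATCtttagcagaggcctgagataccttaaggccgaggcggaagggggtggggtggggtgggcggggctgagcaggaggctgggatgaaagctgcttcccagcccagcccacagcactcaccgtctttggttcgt
Ankrd37 held 2 matches to ACGTG, and the other 3 windows held 1 match to GATAA each. On both strands, 19.6% of the 32851 promoters in the RefSeq table contained ACGTG and 25.4% contained GATAA. Counted per tested gene with a promoter in the table, ACGTG was present for 18 of 24 HIF targets and for 28.7% of the 9495 genes. GATAA was present for 5 of 9 red cell genes (55.6%) and for 19.9% of the 9495 genes. ACGTG and GATAA can share a single G, and ACGTG overlaps its own reverse complement within CACGTG. The HIF list holds known targets of a factor that binds ACGTG, so its share is not a test of the list. These shares come from promoter sequences and are not results of the expression data. A match describes the letters of the window and does not show that a factor binds there.

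At day 14, 52 of 19236 features passed an adjusted p under 0.05 (limma, 4 against 4 RNA samples, Benjamini-Hochberg over all features), which is 0.27% of those tested. Of these, 38 were higher (0.198%) and 14 lower (0.0728%). Named genes made up 35 of the 52, 25 higher and 10 lower, and the other 17 were probes without a gene name here. The change was at least 2-fold for 19, and the folds ran between 1.44 and 3.55. In all 52 the day 14 samples lay wholly on 1 side of the day 0 samples, as they did for 15.8% of all features. Of the named genes, Ttbk1, Zfp219 and Pxt1 were well above background in 1 group only, so their p-values are given as a description. The median difference of all features was 0.06 on the log2 scale, with 58.9% of them higher at day 14. Unadjusted p-values under 0.05 were found for 3181 higher features (16.5%) and 1607 lower ones (8.35%), far more than passed after adjustment. These shares, with 11.2% higher and 4.63% lower without overlap, are the values over all features for the list counts below. Another 1500 features had adjusted p-values between 0.05 and 0.10.

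**Figure D1:**
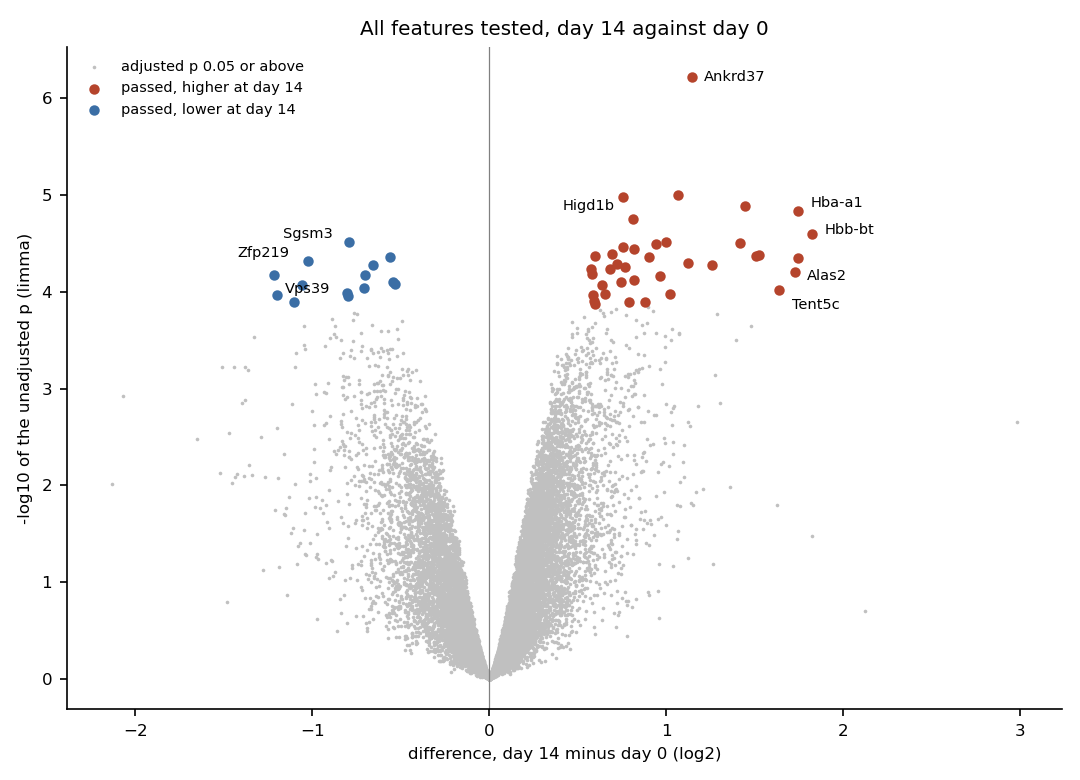
Difference between day 14 and day 0 (log2, horizontal axis) against -log10 of the unadjusted limma p-value (vertical axis) for all 19236 features. The 38 features that rose and the 14 that fell are coloured, and Ankrd37 stands above the other 51.

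These calls depended on single RNA samples. No feature passed when day 14 sample 1, 2 or 3 or day 0 sample 1 was left out, 1 passed without day 0 sample 2 and 3 without day 0 sample 3, whereas 50 passed without day 14 sample 4 and 82 without day 0 sample 4. All 52 kept their direction in each of these 8 fits. The day 14 arrays lay in the second row of the slide and the day 0 arrays in the first, so array row and day cannot be told apart within the slide. Brightness did not overlap between the days: the day 14 arrays had a 75th percentile of 49.1 to 67.11 intensity units against 67.14 to 77.0 at day 0, and 37.9 to 38.9% of their spots were well above background against 39.4 to 42.9% at day 0. On the other slide the second row was dimmer as well, at 203 to 222 against 241 to 271 in the first row. A fit over all 16 arrays that estimated the row from that slide called 4 features, all higher, among them Ankrd37 and Lims2, and 51 of the 52 kept their direction. With this row term the difference moved by over 1.5 times or changed sign for 5 of the 35 passing genes named below and for 40 of the 86 that did not pass. A principal component analysis of the 8 arrays placed 32.5% of the variance on its first axis, where the day 14 samples scored 35.5, 24.9, 9.81 and 6.19 and the day 0 samples -23.8, -24.2, -16.2 and -12.1, so the groups separated while samples of a group still differed.

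Ankrd37 had the smallest p-value of all features, and its log2 levels were 1.50, 1.58, 1.62 and 1.53 in the day 14 samples, against 0.39, 0.61, 0.25 and 0.42 in the day 0 samples. Its 4 day 14 samples lay within a narrow band, far above the highest day 0 sample. It rose by 1.14 ± 0.09 on the log2 scale (SE, n = 4 each, 2.21-fold, limma adjusted p = 0.0117), and by 1.19 ± 0.15 in the fit with the row term (adjusted p = 0.0258, range over 20 alternatives 5.17e-05 to 0.128). The differences below are given in the same way, as log2 values with the SE of the fit and n = 4 each. Of the 31 HIF targets tested, Ankrd37 was the 1 that passed, and 0 passed with a lower level. At an unadjusted p under 0.05, 14 were higher and 2 lower (all features: 16.5% and 8.35%). The median difference of the list was 0.20, against 0.06 for all features. Without overlap, 7 were higher and 1 lower (all features: 11.2% and 4.63%). The median lay at 0.07 in the deposited series table, where that of all features was 0.00.

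Hk2, the hexokinase that traps glucose in muscle and a HIF target, had log2 levels of 6.23, 6.12, 5.89 and 5.77 in the day 14 samples, against 5.33, 5.29, 5.15 and 5.51 in the day 0 samples. All 4 day 14 samples lay above day 0, and the difference of 0.68 ± 0.12 did not pass (adjusted p = 0.0554). Hmox1, the haem-degrading enzyme, had 1.63, 1.59, 2.10 and 0.89 in the day 14 samples, against 0.75, 0.25, 0.44 and 0.61 in the day 0 samples, again without overlap, at a difference of 1.04 ± 0.23 (adjusted p = 0.0646). A second probe for Hmox1 differed by -0.08, so its probes disagreed. Ddit4, a stress-induced inhibitor of mTOR signalling, differed by 0.97 ± 0.35 and Pfkfb3, which makes the activator of phosphofructokinase, by 0.75 ± 0.28, and both overlapped between the days (adjusted p = 0.139 and 0.15). Several well-known targets differed by little: Vegfa, the main vessel growth factor, by -0.07 ± 0.09, Pdk1, the kinase that inhibits pyruvate dehydrogenase, by -0.07 ± 0.09, Slc2a1, a glucose transporter, by -0.06 ± 0.14, and Bnip3, which marks mitochondria for removal, by 0.20 ± 0.10 (adjusted p = 0.659, 0.656, 0.817 and 0.26). For each of these 4 genes the day 14 and day 0 samples overlapped. Other probes for Bnip3 gave -0.03 and 0.18.

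None of the 9 HIF subunits and oxygen sensors passed (limma, 3 higher and 2 lower at an unadjusted p under 0.05). Hif1a and Epas1, the 2 main alpha subunits, differed by 0.13 ± 0.11 and -0.20 ± 0.10 (adjusted p = 0.478 and 0.257). The 3 prolyl hydroxylases did not share 1 sign: Egln1 was lower without overlap, at 0.57, 0.33, 0.79 and 0.78 in the day 14 samples, against 0.97, 1.32, 0.89 and 1.07 in the day 0 samples, with a difference of -0.45 ± 0.13 (adjusted p = 0.103). With the row term Egln1 had -0.12 ± 0.34 (adjusted p = 0.883). Egln3, itself a HIF target, had 3.52, 3.59, 3.44 and 3.31 in the day 14 samples, against 2.89, 2.94, 2.78 and 3.49 in the day 0 samples, where day 0 sample 4 reached the day 14 range, with a difference of 0.44 ± 0.15 (adjusted p = 0.136) and 0.20 at its second probe. Egln2 differed by 0.23 ± 0.08 without overlap, although its second probe gave -0.12. Hif1an, the asparagine hydroxylase that blocks HIF's coactivator contact, differed by -0.38 ± 0.10 without overlap (adjusted p = 0.0872).

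Red blood cell genes rose furthest. Hba-a1, an adult alpha globin, had log2 levels of 9.47, 8.83, 8.43 and 8.88 in the day 14 samples, against 6.97, 7.07, 7.45 and 7.14 in the day 0 samples. Every day 14 sample lay above every day 0 sample, with day 14 sample 1 highest, and the gene rose by 1.74 ± 0.21 (3.35-fold, adjusted p = 0.0397). Alas2, which carries out the first step of haem synthesis in erythroid cells and is not a globin, had 3.74, 3.04, 2.68 and 2.88 in the day 14 samples, against 1.10, 1.50, 1.78 and 1.06 in the day 0 samples and rose by 1.73 ± 0.24 (3.31-fold, adjusted p = 0.0397). Tent5c, a poly(A) polymerase expressed in maturing red cells, had 2.76, 2.30, 1.76 and 1.73 in the day 14 samples, against 0.17, 0.67, 0.83 and 0.34 in the day 0 samples and rose by 1.64 ± 0.25 (3.11-fold, adjusted p = 0.0448). In all 3 genes day 14 sample 1 was the highest sample of the 8 and the groups did not overlap. The array of that sample was also the dimmest of the 8, with a 75th percentile of 49.1, by which its levels were divided. Whether its high levels are related to this was not tested. The beta globins Hbb-bt, Hbb-b2 and Hbb-b1 rose by 1.83 ± 0.23, 1.75 ± 0.24 and 1.52 ± 0.21, and the second alpha globin Hba-a2 by 1.42 ± 0.18 (adjusted p = 0.0397 for each of the 4). Globin genes are near-identical copies whose transcripts can bind each other's probes, so the 5 globin probes are not separate measurements.

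Of 27 red blood cell and erythroid genes in the list, 25 had a probe, 16 were tested and 9 were not above background on at least 3 arrays, among them the erythroid regulators Gata1 and Klf1. Of the 16, 7 passed as higher and 0 as lower, against 0.198% and 0.0728% of all features. No overlap was seen for 13 higher and 0 lower members, against 11.2% and 4.63% of all features. Both counts include globin probes, which are not separate measurements, so neither is a count of independent genes. The median difference was 0.76, and it stayed between 0.54 and 0.73 under the 4 other background corrections, scalings and value tables. The mean log2 level over the 16 genes was 3.26 to 3.80 on the day 14 arrays and 2.27 to 2.68 on the day 0 arrays, so that the list level did not overlap either. In bulk tissue, fewer cells of a type and less RNA per cell cannot be told apart, and the same holds for more red cells and more RNA in each. Without day 14 sample 1, 2 or 3, or day 0 sample 1, 2 or 3, 0 of the 16 passed, while 5 passed without day 14 sample 4 and 4 without day 0 sample 4.

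**Figure D2:**
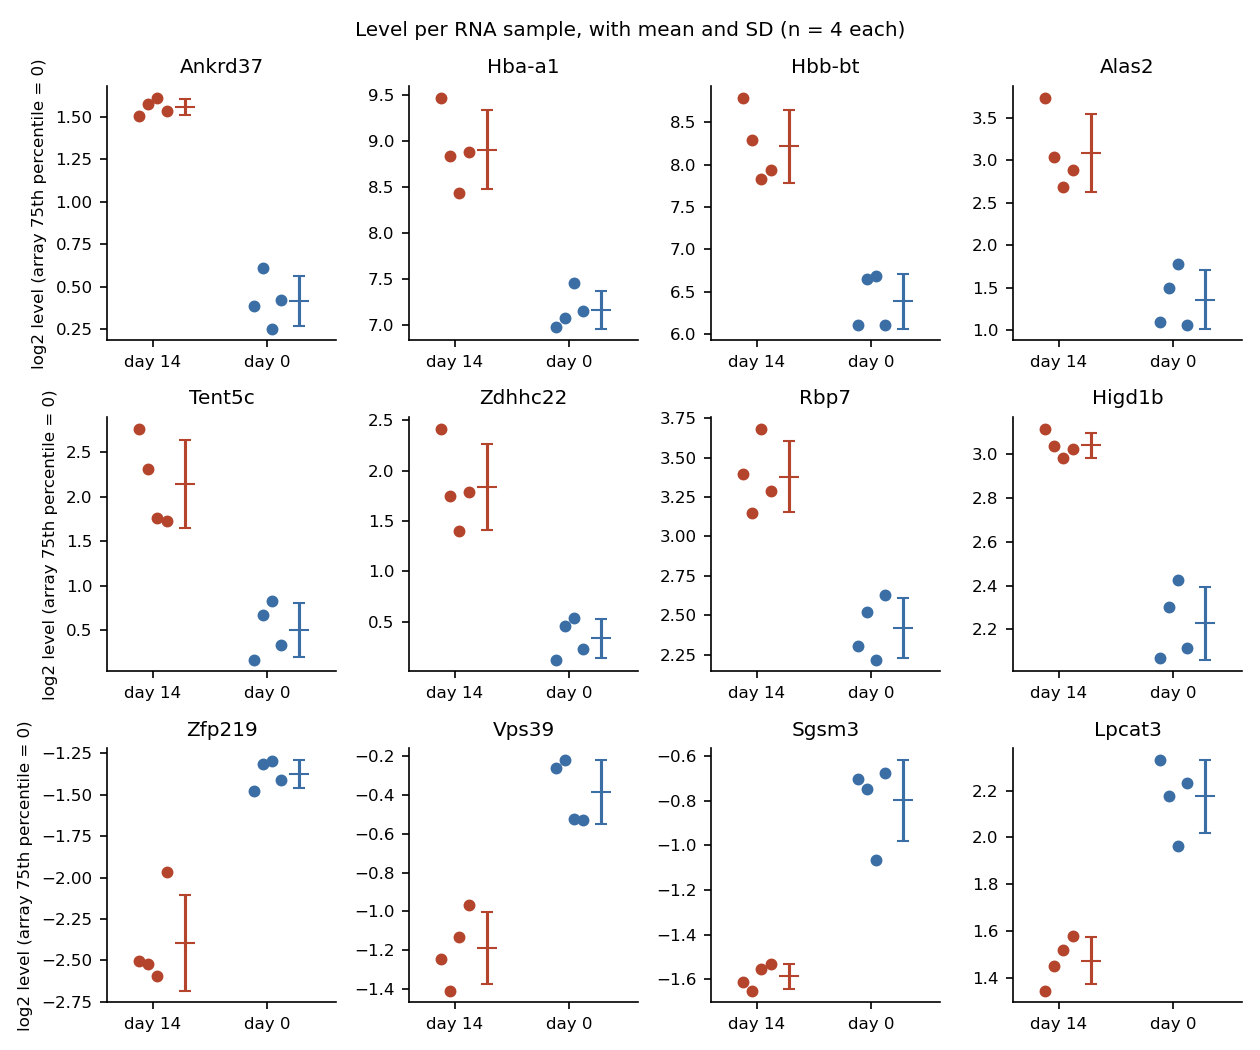
Log2 level (vertical axes, 75th percentile of the array = 0) of 12 genes that passed, as 1 point per RNA sample, with the mean and SD beside the points (n = 4 each, day 14 left, day 0 right). In each panel the 4 day 14 points lie wholly above or wholly below the 4 day 0 points, from Ankrd37, whose day 14 points lie at 1.50 to 1.62, to Lpcat3, whose day 14 points lie at 1.34 to 1.58. Zfp219 was not well above background on any day 14 array and entered the test through its day 0 arrays alone.

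Genes of iron handling were less uniform, with 0 of 17 past the threshold (2 higher and 3 lower at an unadjusted p under 0.05) and a median of 0.00. Tfrc, the transferrin receptor that imports iron, had 2.18, 2.88, 2.79 and 2.97 in the day 14 samples, against 3.25, 3.73, 3.36 and 2.78 in the day 0 samples, where day 0 sample 4 fell within the day 14 range (difference -0.58 ± 0.23, adjusted p = 0.164). Hjv, the haemojuvelin coreceptor for bone morphogenetic proteins, which is abundant in muscle, had 2.95, 3.02, 3.58 and 3.48 in the day 14 samples, against 4.09, 4.11, 3.76 and 3.99 in the day 0 samples with no overlap (difference -0.73 ± 0.16, adjusted p = 0.0641). Bmp6, the ligand that signals iron status in the liver, had -1.80, -1.39, -0.68 and -0.15 in the day 14 samples, against -0.13, -0.16, -0.05 and 0.23 in the day 0 samples, with 2 of 4 day 14 samples above background (difference -0.98 ± 0.32, adjusted p = 0.118). Ftl1, the ferritin light chain, differed by 0.26 ± 0.10 (adjusted p = 0.161), and a second probe gave -0.20. Mb, the oxygen-storing myoglobin of oxidative fibres, had 10.58, 10.43, 10.33 and 10.32 in the day 14 samples, against 10.46, 10.50, 10.25 and 10.43 in the day 0 samples, and the days overlapped.

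Among genes of the small vessels, Higd1b, a mitochondrial membrane protein of the hypoxia-inducible domain family that marks pericytes in mice, had log2 levels of 3.12, 3.04, 2.98 and 3.02 in the day 14 samples, against 2.07, 2.30, 2.43 and 2.11 in the day 0 samples. The day 14 samples lay close together above all day 0 samples, and Higd1b rose by 0.81 ± 0.10 (1.76-fold, adjusted p = 0.0397; adjusted p = 0.0749 with the row term, range over 20 alternatives 0.000941 to 0.129). It was the 1 of 16 pericyte and vascular smooth muscle markers past the threshold, and 0 passed with a lower level. Their median was 0.17. Ndufa4l2, a mitochondrial protein of pericytes and a HIF target, differed by 0.36 ± 0.10 without overlap (adjusted p = 0.0931).

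None of 25 endothelial markers passed (13 higher and 4 lower at an unadjusted p under 0.05), although 11 were higher and 3 lower without overlap (all features: 16.5% and 8.35% at that p, 11.2% and 4.63% without overlap) and their median was 0.33, against 0.06 for all features (0.19 to 0.30 under the 4 other background corrections, scalings and value tables). Ramp2, the partner that turns a calcitonin-like receptor into an adrenomedullin receptor, had 4.98, 4.72, 4.61 and 4.84 in the day 14 samples, against 4.29, 4.13, 4.10 and 4.12 in the day 0 samples. Its day 0 samples lay below all day 14 samples, at a difference of 0.63 ± 0.10 (adjusted p = 0.0528). Mmrn2, a matrix protein of endothelium, differed by 0.50 ± 0.08 (adjusted p = 0.0552). Both Pecam1 and Tek had negative differences: Pecam1, an adhesion molecule of endothelial junctions, had 0.27, 0.22, 0.49 and 0.52 in the day 14 samples, against 0.69, 0.67, 0.55 and 0.69 in the day 0 samples, and Tek, the angiopoietin receptor, differed by -0.39 ± 0.10, both lower without overlap (adjusted p = 0.131 and 0.0872), and at -0.14 ± 0.17 and -0.10 ± 0.26 with the row term (adjusted p = 0.692 and 0.861). The endothelial markers therefore did not share 1 direction, and their mean level of 3.40 to 3.58 on day 14 arrays lay above the 3.18 to 3.36 on day 0 arrays.

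None of 25 angiogenic ligands and tip cell genes passed (4 higher and 3 lower at an unadjusted p under 0.05), and their median was 0.03. Nrp2, a coreceptor for vascular growth factors, differed by 0.58 ± 0.10, with 0.31 at its second probe, and Angpt1, the ligand of Tek, by 0.37 ± 0.11 (adjusted p = 0.0552 and 0.0973). Thbs2, an inhibitor of vessel growth, had -1.12, -0.99, -0.02 and -0.97 in the day 14 samples, against 0.63, 0.75, 0.90 and 0.06 in the day 0 samples, with day 14 sample 3 close to the lowest day 0 sample (difference -1.36 ± 0.27, adjusted p = 0.0568). Vegfc, the growth factor of lymphatic vessels, differed by -0.41 ± 0.11 (adjusted p = 0.0908).

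Other genes that rose had varied roles. Zdhhc22, which encodes a protein of the palmitoyltransferase family, had 2.42, 1.75, 1.39 and 1.79 in the day 14 samples, against 0.12, 0.45, 0.53 and 0.22 in the day 0 samples and rose by 1.50 ± 0.20 (2.84-fold, adjusted p = 0.0397). Rbp7, a cellular retinol-binding protein found in endothelium and fat, had 3.40, 3.15, 3.68 and 3.29 in the day 14 samples, against 2.31, 2.52, 2.22 and 2.63 in the day 0 samples and rose by 0.96 ± 0.14 (adjusted p = 0.0397). Both groups of samples were clearly apart in these genes, and day 14 sample 1 was again the highest for Zdhhc22 but not for Rbp7. Fam117b rose by 1.12 ± 0.15 and Kazn, a protein of cell junctions, by 1.02 ± 0.16, the second with 3 of 4 day 0 samples above background (adjusted p = 0.0397 and 0.0448).

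A further 12 genes that rose were outside the rule for named genes and were chosen after their values were seen, because they complete the named calls. Among them Rgs4, which switches off signals of G protein-coupled receptors, had 1.37, 1.50, 1.07 and 1.23 in the day 14 samples, against 0.31, 0.22, 0.44 and 0.60 in the day 0 samples and rose by 0.90 ± 0.12 (adjusted p = 0.0397). Lims2, an adaptor at focal adhesions, had 5.24, 5.36, 5.19 and 5.16 in the day 14 samples, against 4.57, 4.55, 4.37 and 4.73 in the day 0 samples and rose by 0.68 ± 0.10 (adjusted p = 0.0397), and by 1.12 ± 0.16 with the row term (adjusted p = 0.0326, range over 20 alternatives 0.0013 to 0.129). Fabp5, a carrier of fatty acids, had 4.38, 4.36, 4.25 and 4.45 in the day 14 samples, against 3.71, 3.84, 3.60 and 3.52 in the day 0 samples and rose by 0.69 ± 0.09 (adjusted p = 0.0397). None of these 3 genes showed overlap between the days. Itga6, a laminin-binding integrin, rose by 0.65 ± 0.10, Prkca, a protein kinase C, by 0.59 ± 0.09, Papss2, which makes the donor for sulfation, by 0.59 ± 0.09, and Kcnn2, a calcium-activated potassium channel, by 0.64 ± 0.09 (adjusted p = 0.0448, 0.0484, 0.0448 and 0.0419). A second Prkca probe gave 0.14, and Kcnn2 had 1.08 ± 0.23 with the row term. Fbxl7 rose by 0.81 ± 0.11, Cyyr1 by 0.58 ± 0.08, 2310010J17Rik by 0.60 ± 0.08 and 0610009L18Rik by 0.58 ± 0.08 (adjusted p = 0.0397 for each). Ttbk1, a kinase of tau and tubulin, was not well above background on any day 0 array, and was at least 1.49-fold higher at day 14, by the mean of its day 14 arrays against their background limit at day 0 (means of -1.66 and -2.60, adjusted p = 0.0397). It entered the test through its day 14 arrays alone, a filter that favours a difference, so its p-value is given as a description.

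The 10 named genes past the threshold with lower levels at day 14 had smaller changes, 2 of them known only as bounds. Lpcat3, which inserts polyunsaturated acyl chains into membrane phosphatidylcholine, had log2 levels of 1.34, 1.45, 1.52 and 1.58 in the day 14 samples, against 2.33, 2.18, 1.96 and 2.23 in the day 0 samples and fell by 0.70 ± 0.10 (1.63-fold, adjusted p = 0.0397). Mboat7, which attaches arachidonate to phosphatidylinositol, had 0.65, 0.64, 0.64 and 0.68 in the day 14 samples, against 1.28, 1.20, 1.26 and 1.04 in the day 0 samples and fell by 0.54 ± 0.08 (adjusted p = 0.0419). Twnk, the helicase of mitochondrial DNA, had -0.29, -0.44, -0.26 and -0.36 in the day 14 samples, against 0.18, 0.24, 0.19 and 0.28 in the day 0 samples and fell by 0.56 ± 0.08 (adjusted p = 0.0397). In all 3 the day 14 samples lay below every day 0 sample, and for Mboat7 they were nearly equal.

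Sgsm3, a protein with a RabGAP domain, had -1.61, -1.65, -1.56 and -1.53 in the day 14 samples, against -0.70, -0.75, -1.07 and -0.67 in the day 0 samples and fell by 0.79 ± 0.10 (adjusted p = 0.0397). Paqr7, a membrane progestin receptor, fell by 0.66 ± 0.09, Vps39, a subunit of the lysosomal tethering complex HOPS, by 0.80 ± 0.12, and Tm9sf4 by 0.53 ± 0.08 (adjusted p = 0.0397, 0.0448 and 0.0419). Ccn5, a secreted matrix-associated protein, fell by 0.80 ± 0.12 with 2 of 4 day 14 samples above background (adjusted p = 0.0448). Zfp219, a zinc finger transcription factor, was not well above background on any day 14 array and was at least 1.43-fold lower (means of -2.40 at day 14 and -1.37 at day 0, adjusted p = 0.0397). Pxt1, chosen after its values were seen, was likewise not above background at day 14 and at least 1.17-fold lower (means of -2.37 and -1.67, adjusted p = 0.0437). Both entered the test through their day 0 arrays alone, a filter that favours a difference, so their p-values are given as a description. In the fit with the row term Pxt1 had a difference of 0.01 ± 0.36, so its lower level was not seen there. Zfp219 and Ccn5 had differences of -0.66 ± 0.24 and -1.53 ± 0.26 in that fit. The next 3 genes by p-value, Tpra1, Tmem201 and Dtna, differed by -0.75 ± 0.12, -0.50 ± 0.08 and -0.52 ± 0.09 and did not pass (adjusted p = 0.0528, 0.0552 and 0.0552). Other probes for Tmem201 gave 0.30 and -0.26, so its probes disagreed.

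The fibre programme showed no passing gene: 0 of 17 slow fibre genes and 0 of 19 fast fibre genes, with medians of 0.01 and -0.03. At an unadjusted p under 0.05 the slow list had 1 higher and 3 lower and the fast list 0 higher and 2 lower. Myosin heavy chains overlapped between the days: Myh7 differed by 0.06 ± 0.08 and Myh2, of fast oxidative fibres, by 0.06 ± 0.11 (adjusted p = 0.676 and 0.753). Myh1 differed by 0.43 ± 0.32 (adjusted p = 0.432). Myh4, of the fastest glycolytic fibres, varied widely within both days, at 2.60, 4.03, 4.36 and 7.07 in the day 14 samples, against 5.49, 3.13, 7.19 and 3.12 in the day 0 samples, and no difference could be read from it (-0.22 ± 1.12). Among members of the fibre and skeletal muscle lists, several were lower without overlap but did not pass: Atp2a1, the fast calcium pump, with 5.52, 5.86, 6.07 and 6.21 in the day 14 samples, against 6.98, 6.91, 6.40 and 6.64 in the day 0 samples (difference -0.82 ± 0.18, adjusted p = 0.064), Casq2 and Casq1, the calcium stores of the reticulum, at -0.57 ± 0.11 and -0.37 ± 0.10, and Jph2, which ties the reticulum to the surface membrane, at -0.73 ± 0.15 (adjusted p = 0.0563, 0.0867 and 0.0583). Des, the muscle intermediate filament, differed by -0.56 ± 0.12 and Tnni1, the slow troponin I, by -0.47 ± 0.13 (adjusted p = 0.0586 and 0.0876). Csrp3 and Tcap, proteins of the Z-disc, ran the other way, at 0.43 ± 0.15 and 0.32 ± 0.10 (adjusted p = 0.13 and 0.106), and Csrp3 at 0.05 ± 0.23 with the row term (adjusted p = 0.937). Mef2d, a muscle transcription factor, differed by -0.47 ± 0.09 (adjusted p = 0.057).

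No member of the energy metabolism lists passed on its own. Oxidative phosphorylation subunits had 0 of 77 past the threshold (31 higher and 4 lower at an unadjusted p under 0.05), 16 higher and 1 lower without overlap, and a median of 0.16, where 16.5% and 8.35% of all features reached that p and 11.2% and 4.63% did not overlap. Ndufb11, a subunit of complex I, differed by 0.38 ± 0.09, with a second probe at -0.20, and Cox7a2, of complex IV, had 7.21, 7.31, 7.08 and 7.02 in the day 14 samples, against 6.84, 6.77, 6.72 and 6.80 in the day 0 samples (difference 0.37 ± 0.09, adjusted p = 0.0705). Ndufa10, also of complex I, lay lower, at -0.44 ± 0.14 (adjusted p = 0.112), and at -0.10 ± 0.21 with the row term (adjusted p = 0.815). Cytosolic ribosomal protein genes had 0 of 75 past the threshold (37 higher and 0 lower at an unadjusted p under 0.05), 32 higher and 0 lower without overlap (the same shares of all features apply), and a median of 0.20, with Rpl22, a large-subunit protein, at 0.36 ± 0.09 (adjusted p = 0.0767), although a second Rpl22 probe gave 0.00. The oxidative phosphorylation and ribosomal medians varied with the processing, from 0.41 and 0.26 with the row term and 0.25 and 0.30 without a slide term to 0.04 and 0.06 in the series table and to 0.03 and 0.06 with normexp background correction, where the medians of all features were 0.00 and 0.02.

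Fatty acid uptake and oxidation genes had 0 of 37 past the threshold. At an unadjusted p under 0.05, 1 was higher and 9 lower (all features: 16.5% and 8.35%). Without overlap, 0 were higher and 6 lower (all features: 11.2% and 4.63%). The list median was -0.13, which became 0.27 with the row term, -0.06 without day 0 sample 4 and -0.08 without day 14 sample 4. Acads, the short-chain acyl-CoA dehydrogenase, had 1.45, 1.32, 1.79 and 1.73 in the day 14 samples, against 2.55, 2.42, 2.12 and 2.27 in the day 0 samples (difference -0.77 ± 0.14, adjusted p = 0.0554). Slc25a20, the carnitine carrier of the inner mitochondrial membrane, differed by -0.55 ± 0.11 (adjusted p = 0.0586), and by -0.12 ± 0.22 with the row term (adjusted p = 0.802). The regulators Ppara and Ppargc1a had positive differences of 0.48 ± 0.15 and 0.37 ± 0.18, while Pdk4 and Ucp3, which respond to fatty acid supply, had negative ones of -0.51 ± 0.26 and -0.75 ± 0.40 (adjusted p = 0.108, 0.24, 0.252 and 0.279). All 4 overlapped between the days, and a second Ppargc1a probe gave 0.03. Glycolysis enzymes had 0 of 22 past the threshold and a median of 0.02, citric acid cycle genes 0 of 26 and 0.03, glycogen genes 0 of 16 and 0.01, and cholesterol and fatty acid synthesis genes 0 of 18 and 0.04. At an unadjusted p under 0.05 these 4 lists had 4 higher and 0 lower, 2 higher and 1 lower, 2 higher and 2 lower, and 3 higher and 0 lower. Of the 16 adipocyte markers 0 passed (3 higher and 2 lower at an unadjusted p under 0.05). The list median was -0.22, with 6 higher and 10 lower, and became -0.05 with the row term and -0.43 without day 14 sample 3. Pparg and Fabp4, which endothelium expresses too, differed by 0.56 ± 0.10 and 0.58 ± 0.10, whereas Lipe differed by -0.53 ± 0.13 (adjusted p = 0.0552, 0.0554 and 0.0772). Lipe had -0.08 ± 0.27 with the row term (adjusted p = 0.894). Cebpa was not well above background on any day 14 array and was at least 1.32-fold lower (means of -2.45 and -1.38, adjusted p = 0.181). It entered the test through its day 0 arrays alone, its samples overlapped between the days, and its p-value is given as a description.

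**Figure D3:**
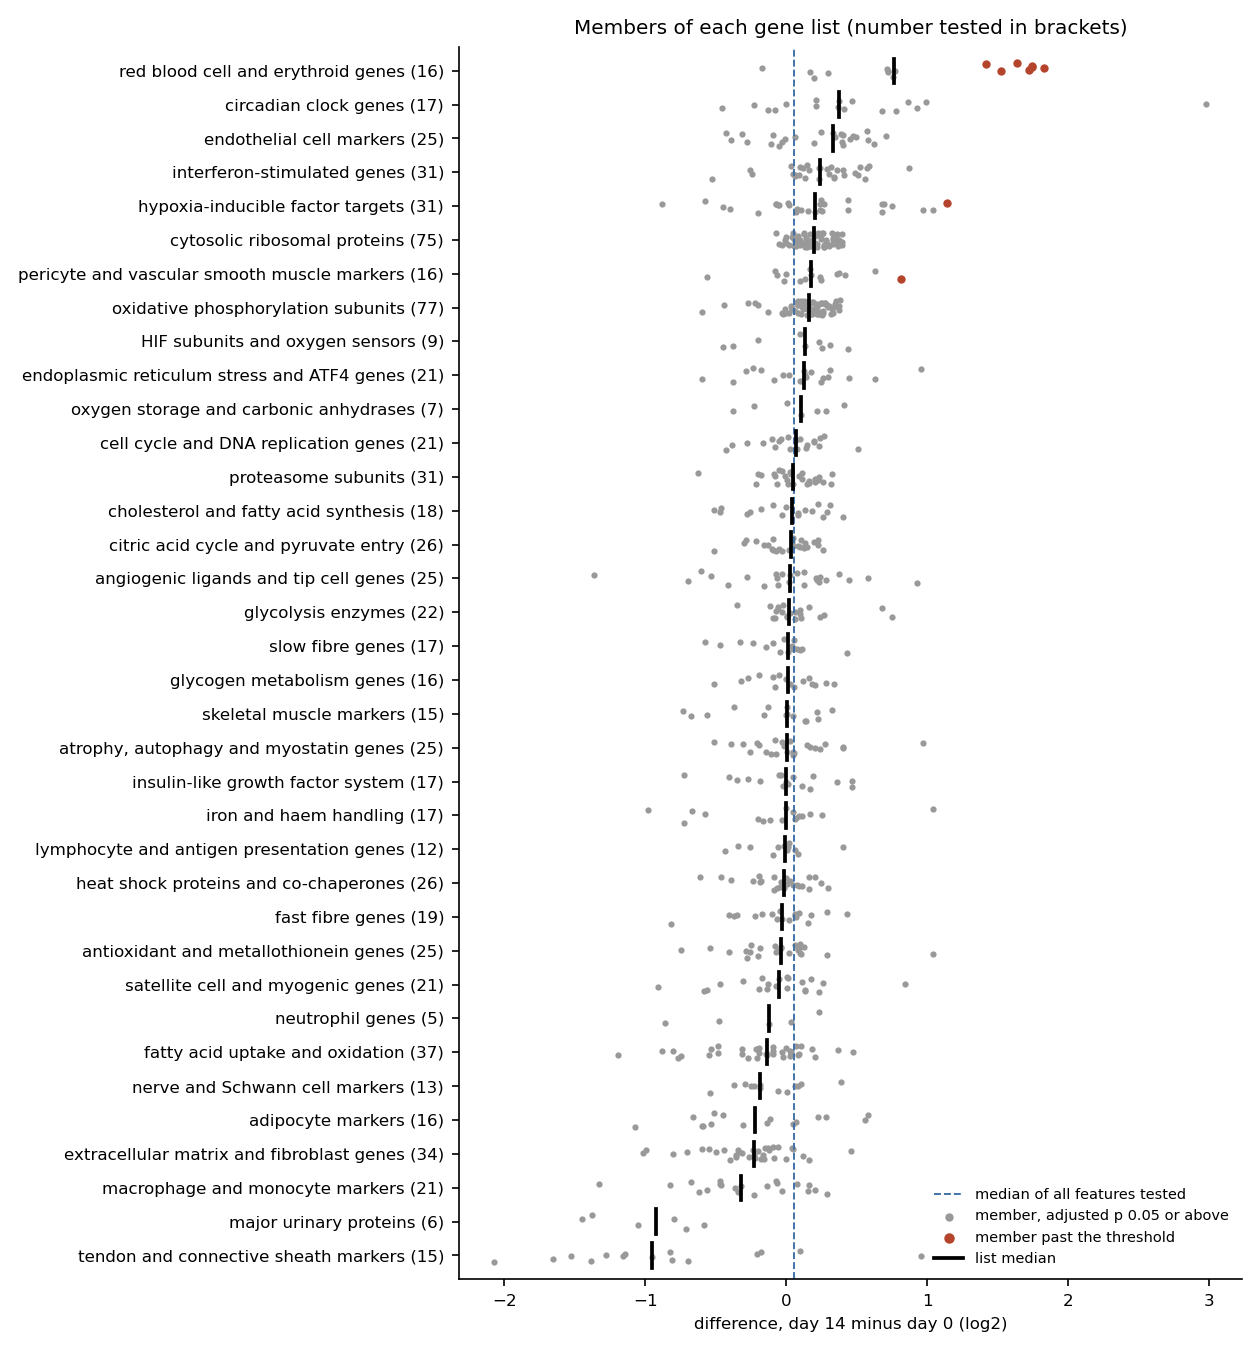
Difference between day 14 and day 0 (log2, horizontal axis) for each tested member of the 36 gene lists, ordered by the list median (black bar), with passing members in red and the median of all features (0.06) as a dashed line. The red cell list stands at the top with a median of 0.76 and 7 passing members, and the tendon list at the bottom with a median of -0.95 and 0.

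Tendon and connective sheath markers had the lowest list median, -0.95, with 0 of 15 past the threshold. At an unadjusted p under 0.05, 0 were higher and 7 lower (all features: 16.5% and 8.35%). Without overlap there were 0 (all features: 11.2% higher and 4.63% lower). Fmod, a collagen-binding proteoglycan of tendon, had 1.33, 0.41, 2.26 and 1.08 in the day 14 samples, against 3.70, 3.70, 3.72 and 2.23 in the day 0 samples. Day 0 sample 4 stood well below the other 3 day 0 samples and within the day 14 range, and the difference of -2.07 ± 0.44 did not pass (adjusted p = 0.063). Tnmd, a membrane protein of tendon cells, had -0.71, -1.22, 0.08 and -1.49 in the day 14 samples, against 1.18, 0.97, 1.36 and -0.25 in the day 0 samples and showed the same low day 0 sample (difference -1.65 ± 0.42, adjusted p = 0.0785). The mean level of the list ran over 0.29 to 1.62 on day 14 arrays and 0.70 to 2.38 on day 0 arrays. Extracellular matrix and fibroblast genes had a median of -0.23 (-0.12 without day 14 sample 4, -0.13 without day 0 sample 3, -0.39 without day 0 sample 4 and -0.56 with the row term), with 0 of 34 past the threshold (1 higher and 7 lower at an unadjusted p under 0.05). Mmp2, a gelatinase, differed by -0.99 ± 0.26, Dpt, a small matrix protein, by -0.60 ± 0.13 without overlap, and Col15a1, a collagen of capillary basement membranes, by 0.46 ± 0.19 (adjusted p = 0.0846, 0.0612 and 0.171). The part of attached tendon or sheath in these differences was not tested.

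Macrophage markers had a median of -0.32, with 0 of 21 past the threshold. At an unadjusted p under 0.05, 1 was higher and 8 lower (all features: 16.5% and 8.35%). Without overlap, 1 was higher and 5 lower (all features: 11.2% and 4.63%). That median was -0.10 without day 0 sample 1 or without day 14 sample 4, and -0.76 with the row term. Lyz2, the lysozyme of macrophages and granulocytes, had -1.37, -1.37, -1.01 and -1.30 in the day 14 samples, against 0.77, -0.32, -0.31 and 0.13 in the day 0 samples. All day 14 samples lay below all day 0 samples, which differed widely among themselves (difference -1.33 ± 0.23, adjusted p = 0.0554). C1qa, a complement subunit made by resident macrophages, had 0.14, 0.10, 0.19 and 0.11 in the day 14 samples, against 0.94, 0.49, 0.69 and 0.67 in the day 0 samples (difference -0.56 ± 0.10, adjusted p = 0.0554). Itgam, an integrin of myeloid cells, ran the other way at 0.29 ± 0.10 (adjusted p = 0.141), with 0.13 and 0.15 at its other probes. Neutrophil genes had 5 of 14 tested, 0 past the threshold, and S100a9 varied widely, at 2.25, 1.58, 1.91 and -1.30 in the day 14 samples, against 2.42, 1.19, 0.91 and 3.36 in the day 0 samples, without a readable difference. Lymphocyte genes, 0 of 12, and nerve and Schwann cell markers, 0 of 13, had medians of 0.00 and -0.18. The lymphocyte median was -0.18 without day 14 sample 1 and -0.32 with the row term, and the nerve median was 0.20 without day 14 sample 1, -0.03 without day 0 sample 3 and -0.28 without day 14 sample 4. The neutrophil, lymphocyte and nerve lists had 0 members at an unadjusted p under 0.05.

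Interferon-stimulated genes had a median of 0.24, with 0 of 31 past the threshold. At an unadjusted p under 0.05, 12 were higher and 1 lower (all features: 16.5% and 8.35%). Without overlap, 8 were higher and 1 lower (all features: 11.2% and 4.63%). Gbp3, an interferon-induced GTPase, had 0.94, 0.52, 0.47 and 0.50 in the day 14 samples, against 0.06, 0.02, -0.10 and 0.16 in the day 0 samples (difference 0.57 ± 0.12, adjusted p = 0.0619), and Oas1a, which senses double-stranded RNA, differed by 0.56 ± 0.12 (adjusted p = 0.0641). Day 14 sample 1 was the highest for both, and the groups did not overlap. Ifi35 was lower, at -0.24 ± 0.09 (adjusted p = 0.139).

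Circadian clock genes had the second highest list median, 0.38, with 0 of 17 past the threshold. At an unadjusted p under 0.05, 10 were higher and 0 lower (all features: 16.5% and 8.35%). Without overlap, 4 were higher and 0 lower (all features: 11.2% and 4.63%). Dbp, a transcription factor driven directly by the clock, had 6.12, 5.83, 6.06 and 6.55 in the day 14 samples, against 4.69, 6.12, 5.15 and 4.64 in the day 0 samples, where day 0 sample 2 reached the day 14 range (difference 0.99 ± 0.31, adjusted p = 0.114). Tef, of the same family, differed by 0.37 ± 0.08 without overlap (adjusted p = 0.0664). Ciart, a clock repressor, had -0.64, -1.73, -0.58 and 0.18 in the day 14 samples, against -4.59, -1.41, -4.39 and -4.30 in the day 0 samples, with 3 of 4 day 14 samples and 1 of 4 day 0 samples above background, and differed by 2.98 ± 0.70 (adjusted p = 0.0711). Day 0 sample 2 was the highest day 0 sample for both Dbp and Ciart. Arntl and Nr1d1, which peak at opposite times of the day, differed by -0.46 ± 0.23 and -0.23 ± 0.18, with overlap (adjusted p = 0.259 and 0.454). The labels do not give the hour at which muscles were taken.

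Stress and growth genes had differences in both directions, and none passed. Hspa1a, the stress-inducible heat shock protein, had 0.93, 1.08, 1.33 and 1.08 in the day 14 samples, against 1.71, 1.92, 1.58 and 1.67 in the day 0 samples (difference -0.61 ± 0.11, adjusted p = 0.0554), and Fkbp4, a co-chaperone, differed by -0.46 ± 0.11, while Hspb2, a small heat shock protein of muscle, differed by 0.30 ± 0.07 (adjusted p = 0.0728 and 0.0776). Of 26 heat shock genes 0 passed (2 higher and 4 lower at an unadjusted p under 0.05), and the median was -0.01. Among 21 genes of endoplasmic reticulum stress and ATF4, with 0 past the threshold and 4 higher and 4 lower at an unadjusted p under 0.05, Trib3 and Atf3 ran apart, at 0.63 ± 0.15 and -0.59 ± 0.15 (adjusted p = 0.0717 and 0.0826). Sqstm1, the autophagy receptor, had 2.71, 2.84, 2.97 and 2.79 in the day 14 samples, against 3.33, 3.47, 3.22 and 3.34 in the day 0 samples and Becn1, which starts autophagosome formation, differed by -0.39 ± 0.08, both lower without overlap (adjusted p = 0.0554 and 0.0586). In the insulin-like growth factor system, with 0 of 17 past the threshold and 2 higher and 3 lower at an unadjusted p under 0.05, Igfbp4 differed by -0.73 ± 0.15 and Grb10, an adaptor that dampens insulin signalling, by 0.47 ± 0.10 (adjusted p = 0.0612 and 0.0586). Of the remaining lists, 0 of 31 proteasome genes, 0 of 25 antioxidant genes, 0 of 25 atrophy genes, 0 of 21 satellite cell genes, 0 of 21 cell cycle genes and 0 of 7 oxygen storage and carbonic anhydrase genes passed. At an unadjusted p under 0.05 the proteasome list had 8 higher and 2 lower, the antioxidant list 1 higher and 5 lower, the atrophy list 3 higher and 3 lower, the satellite cell list 1 higher and 4 lower, the cell cycle list 1 higher and 0 lower and the oxygen storage list 1 higher and 1 lower. All 6 major urinary protein genes tested lay lower at day 14, with 0 past the threshold and all 6 at an unadjusted p under 0.05 (8.35% of all features). Their median of -0.92 became -0.40 with the row term and -0.32 with normexp background correction. The mean level of the list ran over -1.91 to -0.81 on day 14 arrays and -0.72 to -0.14 on day 0 arrays. The lowest signal well above background on the day 14 arrays lay at -1.96 to -1.84. Mup1 had 1 of 4 day 14 samples above background (difference -1.38 ± 0.27, adjusted p = 0.0563) and Mup19 differed by -0.71 ± 0.20 (adjusted p = 0.0922). With the row term they had -0.55 ± 0.53 and -0.20 ± 0.36 (adjusted p = 0.59 and 0.791). These genes are near-identical copies that can share signal.

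The earlier days place the day 14 values in time. On the other slide each array was set against the mean of its 2 day 0 arrays, made from day 0 RNA samples that also belong to the day 14 comparison, so the comparisons share control samples. Ankrd37 lay at -0.31 at day 3 (-0.43 to -0.14), at 0.60 at day 7 (0.38 to 0.82) and at 1.14 at day 14, below day 0 in all 3 samples at day 3. Higd1b lay at 0.51, 0.75 and 0.81 at days 3, 7 and 14, above day 0 in every sample of each day.

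Red cell genes that passed did not all have like values at the earlier days. Hba-a1 lay at -0.85 at day 3 and -0.23 at day 7, against 1.74 at day 14, and Alas2 at -1.13, -0.33 and 1.73 at the 3 days. All 3 samples of day 3 lay below the day 0 mean for both genes. Hba-a2 lay at -0.40, 0.28 and 1.42, and Tent5c at -0.02, 0.36 and 1.64, both above the day 0 mean at day 7. Since globin probes are not separate measurements, the gap between Hba-a1 and Hba-a2 cannot be read as 2 courses. Zdhhc22 lay at -0.10, 0.49 and 1.50, and Ramp2 at -0.01, 0.06 and 0.63. Several genes that fell at day 14 lay below day 0 at the earlier days as well: Sgsm3 at -0.63, -0.57 and -0.79, Paqr7 at -0.54, -0.71 and -0.66, and Twnk at -0.60, -0.68 and -0.56. Hspa1a lay at -0.44, -1.84 and -0.61, its lowest value at day 7. Fmod lay at 0.16, 0.37 and -2.07, and Tfrc at -1.14, -1.72 and -0.58, so Fmod was below day 0 at day 14 only, in these means, and Tfrc at all 3 days. Lyz2 lay at -0.06, -1.60 and -1.33, with the 3 day 3 samples spread over -0.84 to 1.18. Dbp lay at -2.41, 0.85 and 0.99. These differences between days were not tested here, since day 14 and the earlier days lay on different slides.

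**Figure D4:**
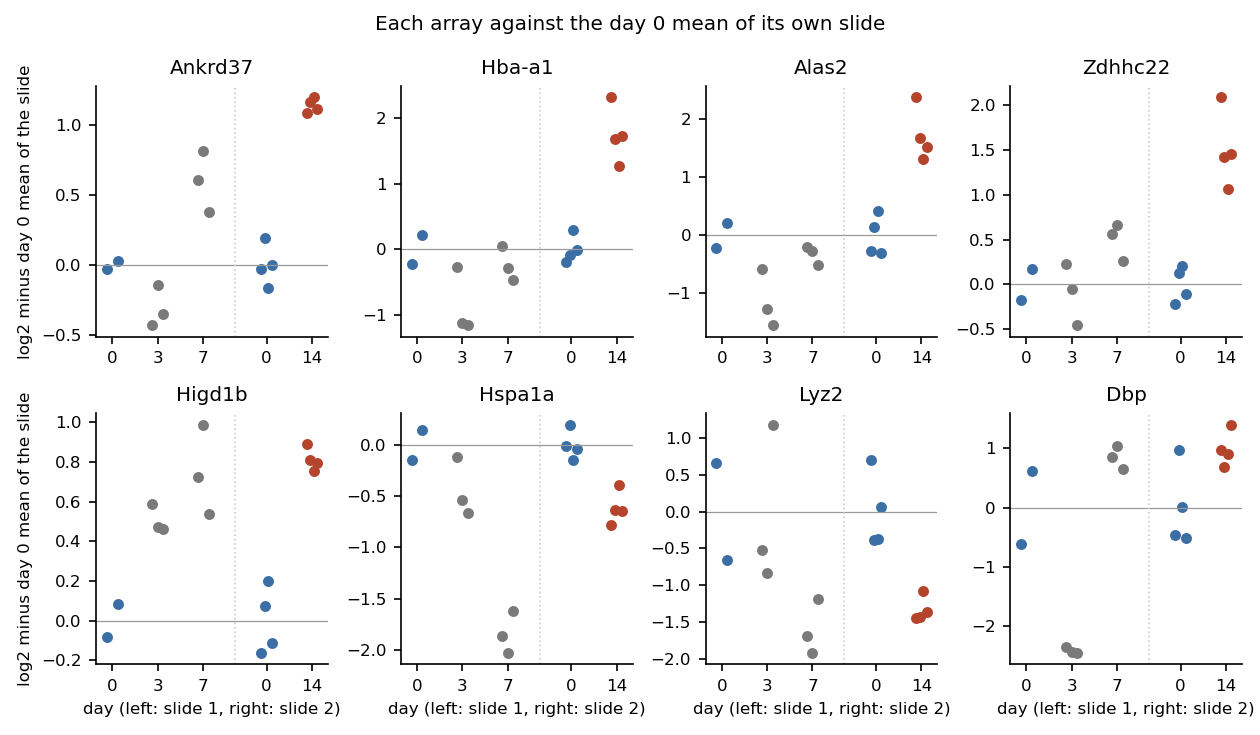
Log2 level of each array minus the mean of the day 0 arrays of its own slide (vertical axes) for 8 genes, with days 0, 3 and 7 on the first slide and days 0 and 14 on the second (horizontal axes, 1 point per array). Ankrd37 lies at -0.31, 0.60 and 1.14 on average at days 3, 7 and 14, and Hba-a1 at -0.85, -0.23 and 1.74.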

How the data were processed

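RNA from 8 soleus samples was measured on Agilent 1-colour (Cy3) arrays on 1 slide with 1 scan. Per the file headers, the deposited intensity of each spot came from Agilent Feature Extraction, with the background subtracted and spatial trends removed, and without scaling between arrays. An intensity of unstated processing in the deposited series table was the basis of 1 alternative; its steps are not given in the sources used here.

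Of 55681 probes, 27656 (49.7%) took the symbol of 1 of 20972 genes through RefSeq accessions. Levels are log2 values of the deposited intensity after division by its 75th percentile over 59305 non-control spots, averaged per probe. Spots with an outlier mark (99 to 142 per array) were left out, 9 probes had no value on at least 1 array, and no spot was saturated. A probe entered the fit if 3 or more of 8 arrays measured it well above background (22420 probes), and 1 probe per gene, the brightest, was used, giving 19236 features with 11926 named genes. Limma 3.58.1 in R 4.3.3 compared day 14 with day 0 by its moderated statistic, 2-sided, with Benjamini-Hochberg adjustment. Differences are day 14 minus day 0. For a probe below background throughout 1 group, the fold is a bound: the mean of the bright group against, per dim array, the higher of the probe's value and the lowest signal well above background. The number of arrays limits the precision.

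The text names, among genes well above background on all arrays of at least 1 group, the 12 largest rises and falls past the threshold (filled by smallest p), up to 2 members per direction of each of 36 lists, core genes, and genes said to be chosen after their values were seen. Some genes are not reported here. Members, lists and tests were chosen with earlier results of these data known. The 20 alternatives covered background correction, scaling, filter, probe choice, moderation, the arrays in the fit, a replicate block and each sample left out. Normexp background correction used the median signals, since the files hold no mean signal, and was added after the files were seen. The fit was tested on simulated data. Same-numbered samples of the 2 days had deviations that correlated at 0.02 to 0.12. Not every pair exceeded the 0.1 needed to treat the numbers as pairs, so the fit reported has no block. Figures were made with Matplotlib 3.10.9.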

Additional observations from a re-analysis of the deposited data

Results flagged for a closer look

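Among 242 groups of 4 samples (2 days for each of the 121 genes named in the text), 14 held 1 sample whose gap to the nearest other was a larger part of the group's range than Dixon's critical value for 4 samples allows. Chance alone marks about 1 in 20 groups. In the day 14 group the samples that stood apart were sample 1 for Csrp3 (7.49, others 7.19 to 7.23) and Gbp3 (0.94, others 0.47 to 0.52), sample 3 for Thbs2 (-0.016, others -1.12 to -0.97), and sample 4 for Zfp219 (-1.97, others -2.59 to -2.50) and Tnni1 (7.25, others 6.73 to 6.81). Zfp219 was below background in that group. In the day 0 group they were sample 1 for Ramp2 (4.29, others 4.10 to 4.13), sample 2 for Ciart (-1.41, others -4.59 to -4.30), and sample 4 for Kcnn2 (-1.58, others -1.43 to -1.42) and Fmod (2.23, others 3.70 to 3.72). Day 0 sample 3 stood apart for 5 genes: Csrp3 (6.40, others 6.96 to 7.05), Pecam1 (0.55, others 0.67 to 0.69), Ndufa10 (4.93, others 5.29 to 5.35), Fkbp4 (1.83, others 1.99 to 2.01) and Trib3 (0.93, others 0.50 to 0.56). Of the genes in this paragraph, Zfp219 and Kcnn2 had passed the threshold.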

How the results depend on the processing

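The number of features that passed, 52 in the fit reported (38 higher, 14 lower), varied with the processing. The total was 53 with quantile normalization, 39 with scaling to the median of probes above background on all 8 arrays and 51 with the mean of a gene's probes. It was 1215 with normexp background correction (452 higher, 763 lower), 394 in the deposited series table (185 higher, 209 lower), 8 without a filter on dim probes (4 higher, 4 lower), 822 with probes above background on all 8 arrays and 1839 with an intensity trend and robust prior. Over all 16 arrays it was 304 with a slide term, 4339 without one and 4 with slide and row terms. With the replicate number as a block, 0 passed in limma (4170 at an unadjusted p under 0.05), and 3 of the 4 day 14 samples correlated best with their own number, as a hint from the data and not from the design. Leaving out 1 sample gave 0 to 82 calls. Fewer samples were fitted in the last case, and for the others the cause was not tested. All 52 kept their direction except 1 in the fits without a slide term and with the row term, and except that 43 of the 52 were tested with the strict filter. Of the genes named here, these changed sign. With the row term, Hif1a had -0.024, Vegfa 0.12, Pdk1 0.065, Pxt1 0.011 and Myh4 1.03. Without a slide term, Mb had -0.013 and Myh4 0.067. In the series table, with normexp and with quantile normalization, Mb had -0.22, -0.17 and -0.073, Myh2 -0.24, -0.093 and -0.045, and Myh7 -0.12, -0.077 and -0.057, and Mb had -0.026 with median scaling. Leaving out 1 sample gave -0.050 to 0.037 for Mb, -1.07 to 0.60 for Myh4 and -0.16 to 0.059 for Slc2a1. The median of all features lay at 0.20 without a filter, 0.13 without a slide term and 0.11 with the row term, against 0.06 in the fit reported. Few dim probes could be measured, since 37.9 to 42.9% of spots were well above background.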
